A study of Mus musculus with 4 samples.

Results

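The genes described here are 9 mouse genes for secreted proteins that the visceral endoderm is known to make: Afp, Ttr, Rbp4, Apoa1, Apoa4, Apob, Apoe, Apom and Spink1. They are 9 of the 31055 gene rows of the single-cell count tables and were taken by symbol, with 1 row found for each. The set was chosen by the difference in UMI counts between Grhl3-null and WT cells of these same libraries, so every difference between the genotypes that follows for these 9 genes is a description and carries no test. The question asked of them was whether their higher level in null cells that are not endoderm looked like free RNA from gut-type cells.

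ScRNA-seq had been done on the caudal end of C57BL/6 mouse embryos at E8.5 in both genotypes, WT and Grhl3-null, obtained by crossing Grhl3+/- mice and genotyped from the yolk sac. The cells of 5 WT embryos formed 1 pool and those of 3 Grhl3-null embryos another, and 2 droplet reactions were run on each pool, so that every p-value below sets 1 pool against another, without any embryo-to-embryo spread. The null allele is present from conception in all tissues, extraembryonic ones included. The 4 libraries held 5698 to 6186 barcodes called as cells and 217559026 to 232903564 unique molecular identifiers (UMIs, each marking 1 captured transcript). Under the limits of the study (at least 3000 genes, at least 7500 UMIs, at most 7% mitochondrial UMIs) 5459 and 5116 cells were kept in the WT and 4842 and 4781 in the Grhl3-null libraries, which is 88.2% and 89.8% against 78.4% and 77.4%. Median depth of the kept cells ran from 33391 to 38070 UMIs, and 62 of 24177 barcodes occurred in more than 1 library. Grhl3 itself, the disrupted gene, was counted 878 and 803 times in the kept WT cells and 12 and 14 times in the kept null cells.

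The visceral endoderm is the epithelium that surrounds the early embryo and later lines the yolk sac. Before the liver exists it takes up maternal proteins through the cubilin and amnionless receptor pair and secretes carriers of lipids, retinol and thyroid hormone into the embryonic circulation, under transcription factors such as HNF4A, HNF1 and FOXA. Some of its cells become part of the gut tube. Afp is the main serum protein of the foetus. Ttr carries thyroxine and, with Rbp4, retinol. Apoa1 and Apoa4 coat high-density lipoproteins, Apob is the scaffold of the large lipid particles, Apoe is the ligand by which lipid particles are taken up, Apom carries sphingosine 1-phosphate, and Spink1 inhibits trypsin.

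RefSeq promoter windows of GRCm38.p6, from 250 bases before to 50 bases after each gene start, were taken for 7 of the 9 genes, in 10 windows. No window of Ttr or Spink1 was searched, so nothing is said of their promoters. The windows were searched on both strands for short words bound by the endoderm factors. The stretches below are shown because they hold such a word, in capitals, or a TATA word close to the annotated start of the window. Each is written in the direction of its gene. The window of both Apoe stretches (chr7:19698349-19698648) and that of the Rbp4 TATA word (chr19:38124762-38125061) lie inside the genes as placed below. The Rbp4 FOXA word is in another window (chr19:38125272-38125571).
Afp, GTTAAT (HNF1 word), chr5:90490598-90490625, plus strand: acccctgctctGTTAATtattggcaaat
Apoe, GTTAAT read on the opposite strand, chr7:19698554-19698581, minus strand: aatcgtgttaaATTAACacaaaatggaa
Apoa4, CAAAGT (HNF4 word), chr9:46240651-46240678, plus strand: atgttctgagaCAAAGTtcaggttggtg
Rbp4, TGTTTAC (FOXA word) read on the opposite strand, chr19:38125544-38125571, minus strand: aaatgcatgGTAAACActtggcaattat
Apoe, TGTTTAC read on the opposite strand, chr7:19698386-19698413, minus strand: gcaaggggagGTAAACAgacctttggga
Afp, TATAAA, known as the TATA word, chr5:90490696-90490723, plus strand: cttaaacaggaTATAAAaggacttcagc
Apob, TATAAA, chr12:7977606-7977633, plus strand: ccagctcctccTATAAAtggagcacttt
Rbp4, TATAAA, chr19:38124823-38124850, minus strand: ccccccggagcTATAAAggaccgacggc
Of the 32851 promoter windows of the same length that were counted, 7.10% held GTTAAT, 14.4% CAAAGT, 3.65% TGTTTAC and 13.6% TATAAA. The longer HNF4 word CAAAGTCCA (0.475% of windows), which contains CAAAGT, and the GATA word AGATAA (11.2%) were not in the windows of the 7 genes. No word was shared by all of the windows, and a match is a description of the letters only.

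In mm10 the genes lie at chr5:90490737-90508907 (Afp, plus strand), chr18:20665280-20674321 (Ttr, plus), chr19:38116629-38125281 (Rbp4, minus), chr12:7977648-8016835 (Apob, plus), chr7:19696109-19699188 (Apoe, minus), chr17:35128997-35132050 (Apom, minus) and chr18:43728082-43737557 (Spink1, minus). Apoa1 (chr9:46228580-46230466, plus) and Apoa4 (chr9:46240696-46243459, plus) are neighbours on the same chromosome.

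In the Grhl3-null libraries most UMIs of the 9 genes sat in very few barcodes, and many of those barcodes had been removed by the filters. Filtered cells were clustered without the 9 genes, and the clusters that led with the study's gut markers, less these 9 genes, were called gut-like. The class was made of a cluster of 1208 cells led by Nepn, Apela, Cldn7, Cpm and Foxa1 and a shallower cluster of 99 cells led by Fabp1, Krt19, Gpx2, Cpn1 and Myl3. It held 278 and 243 cells (5.09% and 4.75%) in the WT and 401 and 385 cells (8.28% and 8.05%) in the Grhl3-null libraries. Gut-like cells carried 46.3% and 46.8% of a WT library's UMIs of the 9 genes and 35.2% and 30.2% of a null library's. All other filtered cells, 5181 and 4873 in WT and 4441 and 4396 in null, carried 26.1% and 26.9% against 10.3% and 8.68%. The barcodes that failed the filters, 727 and 582 in WT and 1335 and 1397 in null, carried 27.6% and 26.3% in WT and 54.5% and 61.1% in null. In CPM, UMIs of a gene scaled to a total of 1e6 UMIs, the 9 genes together made up 2363 and 2742 CPM of the failed barcodes in WT and 9427 and 10650 CPM in null.

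**Figure D1:**
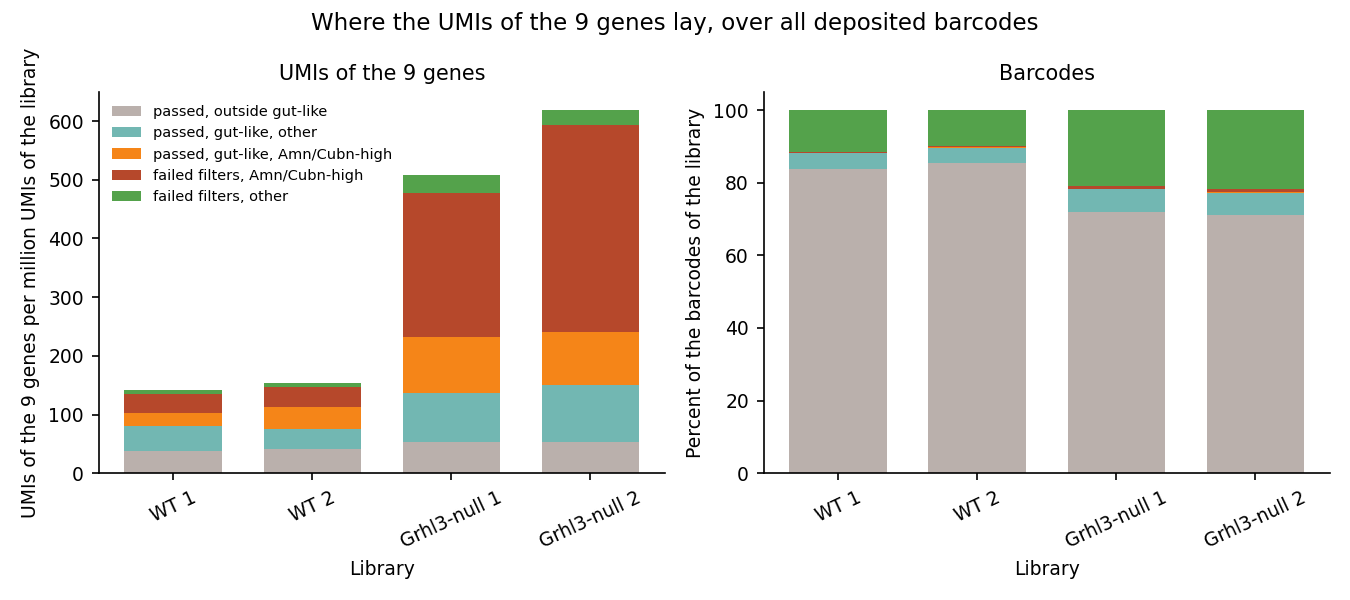
Left, CPM of the 9 genes over the whole library, stacked by where the barcodes lay, and right, the percentage of the library's barcodes in the same places, with 1 bar per library. In the Grhl3-null libraries the largest piece on the left is that of failed barcodes high in Amn or Cubn (48.5% and 57.0% of the bar, against 22.1% and 22.1% in WT), which is hardly visible on the right.

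Among the failed barcodes, most UMIs of the 9 genes lay in barcodes with the visceral endoderm receptor genes Amn and Cubn, as defined next. These held 7275 of 9057 and 7619 of 9073 UMIs in WT, and 57418 of 64521 and 76653 of 82278 UMIs in null. Barcodes of any quality were called Amn/Cubn-high when they had at least 3 UMIs of Amn and Cubn, the amnionless and cubilin receptor genes, making up at least 0.02% of their UMIs. This definition was chosen after the values had been seen. It found 12 and 30 barcodes in the WT and 63 and 76 in the Grhl3-null libraries, 181 in all. Of these, 73 failed by few genes or UMIs (median 3047 UMIs), 70 failed by their mitochondrial share alone (median 45844.5 UMIs and 8.88% mitochondrial), 34 passed as gut-like cells and 4 passed outside the gut-like class. In null, 27 and 34 barcodes failed by mitochondrial share alone, against 4 and 5 in WT. The 9 genes took 31876 and 31632 CPM of the Amn/Cubn-high barcodes in WT and 38418 and 39400 CPM in null, 1.23-fold higher. Among the 9 genes this fold ran from 1.05 for Apoa4 to 1.70 for Apob, which was at 1198 and 1028 CPM in WT and at 1984 and 1792 CPM in null. Amn/Cubn-high barcodes held 37.9% and 47.8% of a WT library's UMIs of the 9 genes and 67.5% and 71.5% of a null library's. With 1 pool per genotype, a difference in the dissection of the pools and a difference between the genotypes cannot be told apart.

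Compared with the other gut-like cells, Apoa1 was the leading gene of the Amn/Cubn-high barcodes (208-fold, with 5 CPM added to both sides), ahead of Cubn, Apob (105-fold) and Amn. Cubn and Amn were high there by the definition, and these folds cover passed and failed barcodes together. Apoa4 was 67.0-fold, Apom 48.3-fold, Ttr 48.0-fold, Apoe 43.5-fold, Rbp4 43.2-fold and Afp 34.9-fold higher there. Spink1 stood apart with 10.7-fold, since it was also high in the remaining gut-like cells (344 CPM, against 11.8 CPM for Apob and 55.9 CPM for Afp). S100g, Npl, Spp2 and Slc2a2 were other leading genes. Rhox5 and Trap1a, genes known to stay active in cells of extraembryonic descent, were at 693 to 899 CPM and at 409 to 587 CPM in these barcodes. Of the proteins the later liver secretes, Apoa2 was at 353 to 580 CPM, while Apoh was at 0 in all 4 libraries and Alb was at 0 in 3 of them and at 0.962 CPM in Grhl3-null 1. The defining marker of the mature hepatocyte, Alb, was thus near absent.

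Outside the gut-like class all 9 genes were higher in both Grhl3-null libraries than in both WT libraries, an order that 37.9% of the 16884 genes tested there showed as well. Their levels are given per library, WT first, and genes are not ranked against each other by level. Afp was at 0.259 and 0.217 CPM in WT and at 1.10 and 1.04 CPM in null, 4.51-fold higher. Ttr was at 0.490 and 0.679 CPM against 2.73 and 2.46 CPM, 4.44-fold higher. Rbp4, already present in WT, was at 4.74 and 4.96 CPM against 7.10 and 8.03 CPM, 1.56-fold higher. Of the 3 retinol and serum carriers, Afp and Ttr thus differed by similar folds and Rbp4 by a smaller one.

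The apolipoproteins divided in the same way. Apoa1 was at 0.773 and 0.813 CPM in WT and at 2.23 and 2.23 CPM in null, 2.81-fold higher. Apob was at 0.141 and 0.188 CPM against 0.595 and 0.629 CPM, 3.72-fold higher. Apoa4, the rarest, was at 0.0377 and 0.0337 CPM against 0.158 and 0.0936 CPM, 3.53-fold higher. These 3 were scarce outside the gut-like class, and their null libraries lay well above the WT ones. Apom was at 0.443 and 0.611 CPM against 1.05 and 0.983 CPM, 1.93-fold higher. Apoe was at 32.9 and 36.1 CPM against 40.4 and 42.2 CPM, only 1.20-fold higher. Apoe alone made up 81.2% and 81.0% of the UMIs of the 9 genes outside the gut-like class in WT and 69.0% and 69.5% in null, so the sum of the 9 genes followed Apoe.

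Spink1, the protease inhibitor, was at 0.712 and 0.943 CPM in WT and at 3.19 and 3.05 CPM in null, 3.77-fold higher. The summed 9 genes were at 40.4 and 44.5 CPM in WT and at 58.6 and 60.8 CPM in null, 1.40-fold higher or 0.49 on the log2 scale. In sums over cells, fewer cells with a transcript and less of it per cell cannot be told apart.

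**Figure D2:**
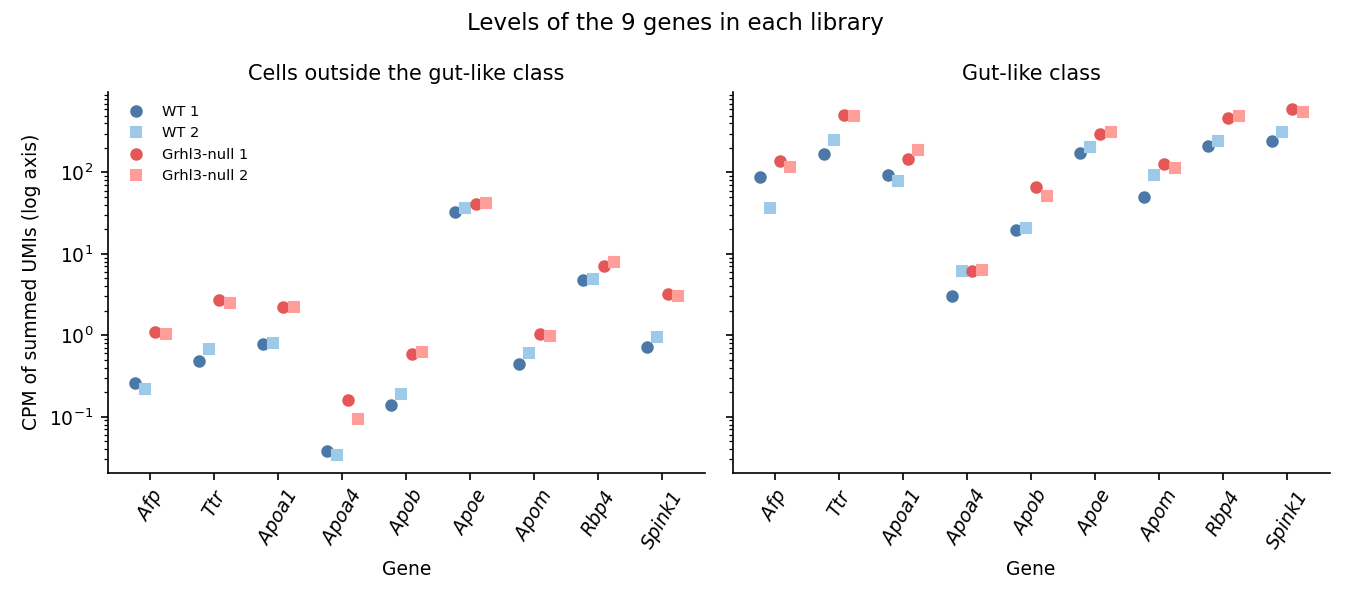
Level of each of the 9 genes (CPM, log axis) in the filtered cells outside the gut-like class (left) and in the gut-like class (right), with 1 point per library. On the left both Grhl3-null points lie above both WT points for each gene, from 1.20-fold for Apoe to 4.51-fold for Afp, and on the right they do so for each gene but Apoa4.

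Over all deposited barcodes, failed ones included, the summed genes were at 142.5 and 153.8 CPM in the WT and at 508.3 and 618.5 CPM in the Grhl3-null libraries, 3.80-fold higher. The fold of the whole library and the fold outside the gut-like class were near each other for Spink1 (3.71 and 3.77), Afp (4.60 and 4.51) and Ttr (5.32 and 4.44). These are folds of means, and for Afp the WT libraries lay apart over all barcodes (8.28 and 4.41 CPM, against 26.4 and 31.9 CPM in null). They lay further apart for Apoa4 (4.92 and 3.53), Apoa1 (5.18 and 2.81), Apoe (2.23 and 1.20), Apob (7.41 and 3.72) and Apom (4.17 and 1.93), and furthest, as a ratio of the folds, for Rbp4 (4.38 and 1.56). Rbp4 and Apoe had WT levels outside the gut-like class that were large beside the difference. Taken as an amount, the CPM added in null cells outside the gut-like class was 2.17% to 3.88% of the CPM added in the whole library for the 8 genes other than Apoe. It was 3.88% for Spink1, 3.65% for Afp, 3.09% for Rbp4, 3.02% for Apoa1, 2.67% for Apoa4, 2.46% for Apob, 2.20% for Ttr and 2.17% for Apom. For Apoe it was 10.99%. The amount of the whole library includes the amount outside the gut-like class. Droplets without a cell were not analysed here, so the free RNA of the suspension was not measured directly.

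**Figure D3:**
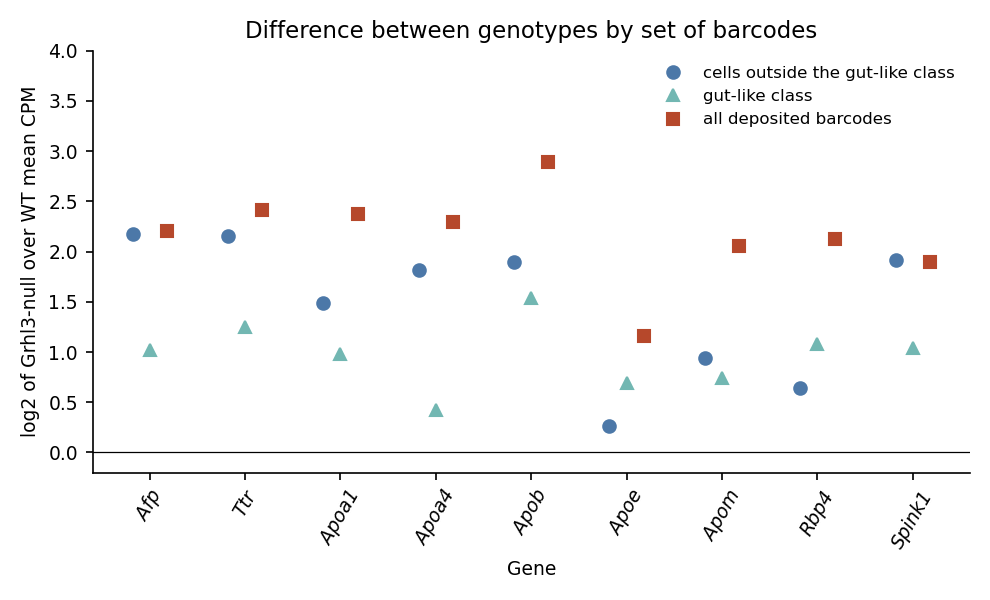
Log2 fold of Grhl3-null over WT mean CPM for each of the 9 genes in the cells outside the gut-like class, in the gut-like class and over all deposited barcodes. Spink1 (3.71 and 3.77-fold) and Afp (4.60 and 4.51-fold) had nearly the same value over all barcodes and outside the gut-like class, while Apoe and Rbp4 had the smallest values outside.

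The classes outside the gut were then compared one by one. Of the classes, 11 had at least 100 cells in each genotype: somitic, paraxial and intermediate mesoderm-like cells, neuromesodermal progenitor (NMP)-like, neuroepithelium-like, surface ectoderm-like, endothelium-like, erythroid-like, mesenchyme 1-like and mesenchyme 2-like cells, and cluster 10, an unnamed cluster of 525 shallow cells (median 16220 UMIs) led by Lefty2, Ppp1r14a, Spin2c, Foxf1 and Hand2. Both null libraries were above both WT libraries in all 11 classes for Spink1, in 10 for Ttr, Apoa1, Apob and Rbp4, in 9 for Afp, in 8 for Apom and in 6 for Apoa4 and Apoe. Some of these classes rest on few UMIs, as for Apob in endothelium-like cells (1 and 0 in WT, 2 and 3 in null). Apoa4 reached at most 8 UMIs in a class and library, in neuroepithelium-like cells of Grhl3-null 1. No limit on UMIs was set for these counts of null above WT, unlike for the shares that follow. Among genes with at least 10 UMIs in a class, that order was shown by 33.8% in paraxial mesoderm-like, 33.6% in neuroepithelium-like, 32.4% in surface ectoderm-like, 31.3% in NMP-like, 28.3% in mesenchyme 2-like, 27.8% in somitic mesoderm-like, 27.5% in erythroid-like, 22.9% in endothelium-like, 22.0% in mesenchyme 1-like and 18.3% in intermediate mesoderm-like cells and by 21.0% in cluster 10.

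Spink1 was lowest in WT in NMP-like cells (0.499 and 0.491 CPM, against 2.53 and 3.21 CPM in null). It was at 0.588 and 0.713 CPM against 3.06 and 3.22 CPM in neuroepithelium-like cells and at 0.652 and 0.504 CPM against 3.06 and 2.88 CPM in erythroid-like cells. These 3 classes had similar null levels, the erythroid-like one resting on 9 and 9 UMIs. Over the 11 classes the mean null level ran from 2.24 to 6.44 CPM. It was highest in endothelium-like cells (0.296 and 1.53 CPM in WT, 4.08 and 8.81 CPM in null). Ttr in neuroepithelium-like cells was at 0.769 and 0.333 CPM in WT and at 2.68 and 3.56 CPM in null. The difference of null minus WT ran from 1.38 to 3.86 CPM over the classes for Ttr and from 1.03 to 5.53 CPM for Spink1. In cluster 10 Ttr was at 5.97 and 2.72 CPM in WT and at 13.1 and 2.63 CPM in null, the only class in which the 2 genotypes overlapped.

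Rbp4 and Apoe had patterns of their own. Rbp4 was highest in WT in NMP-like cells (8.83 and 8.92 CPM, against 11.1 and 12.9 CPM in null) and lowest in erythroid-like cells (0.978 and 0.504 CPM against 4.42 and 2.88 CPM). In both classes null was above WT, whether WT cells held much Rbp4 or little. Apoe was highest in endothelium-like cells, where the genotypes overlapped (328 and 396 CPM in WT, 389 and 345 CPM in null). It was higher in null in neuroepithelium-like cells (20.6 and 22.3 CPM against 31.4 and 32.3 CPM) and mesenchyme 2-like cells (17.5 and 17.6 CPM against 28.8 and 30.9 CPM), and lower in NMP-like cells (38.3 and 40.6 CPM against 27.7 and 30.5 CPM). The difference for Apoe over the 11 classes ran from -11.2 to 12.3 CPM, so Apoe alone among the 4 genes plotted by class differed in both directions. In the small notochord-like class (236 cells) Apoe was at 129 and 139 CPM in WT and at 62.3 and 89.2 CPM in null. In the 59 primordial germ cell-like cells it was at 240 and 287 CPM in WT and at 441 and 408 CPM in null.

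**Figure D4:**
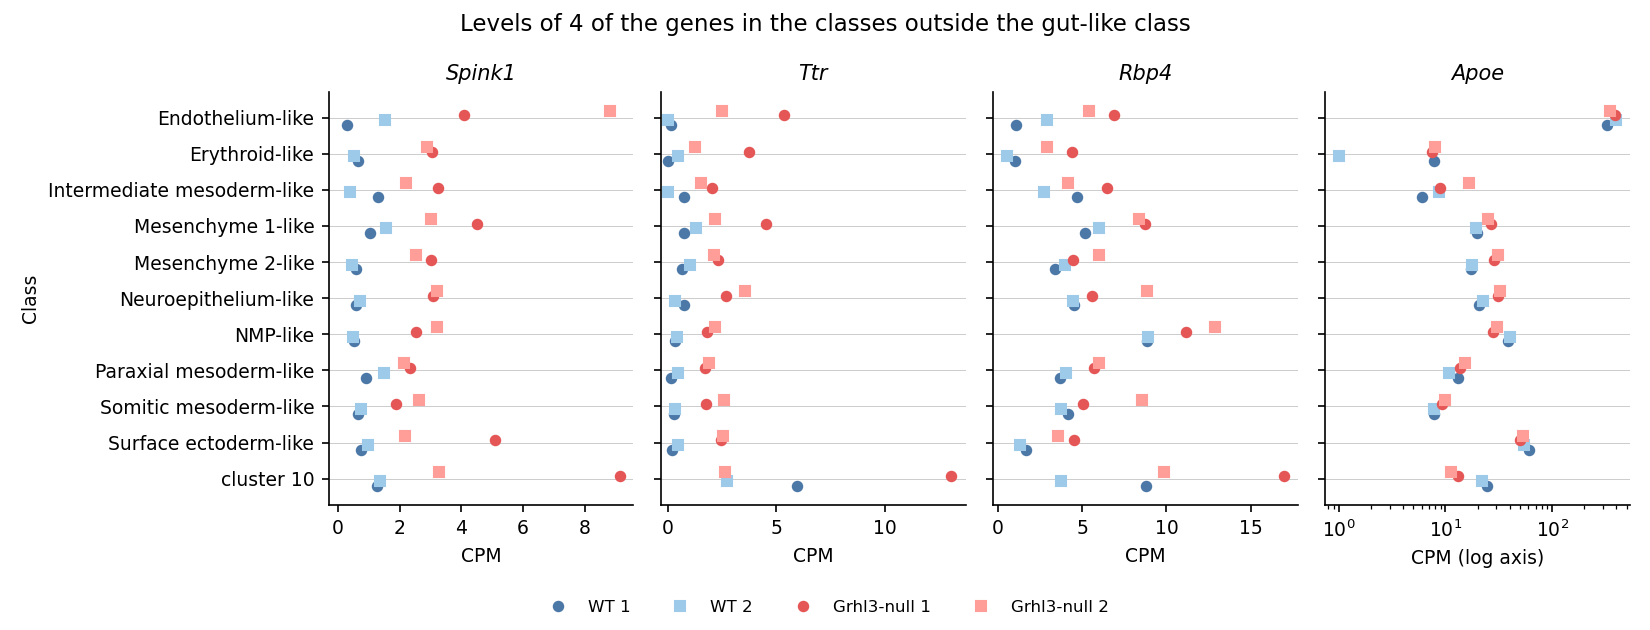
Levels of Spink1, Ttr, Rbp4 and Apoe (CPM, log axis for Apoe) in 11 classes outside the gut-like class, with 1 point per library. For Spink1 the null points lie to the right of the WT points in all 11 classes, while Apoe follows the class, with endothelium-like cells between 328 and 396 CPM and erythroid-like cells between 1.01 and 8.01 CPM.

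Few cells outside the gut-like class held a UMI of the rarer genes, and 4 Amn/Cubn-high cells there, 2 in WT 2 and 2 in Grhl3-null 1, held many. These cells carried 49 of the 141 UMIs of Ttr in WT 2 and 105 of 568 in Grhl3-null 1, 41 of 169 and 63 of 465 UMIs of Apoa1, and 18 of 196 and 24 of 664 UMIs of Spink1. Without them Ttr was at 0.490 and 0.443 CPM in WT and at 2.22 and 2.46 CPM in null, Apoa1 at 0.773 and 0.616 CPM against 1.93 and 2.23 CPM, and Spink1 at 0.712 and 0.857 CPM against 3.07 and 3.05 CPM, so that the null libraries remained above the WT ones. A UMI of Spink1 was found in 2.51% and 3.10% of the WT and in 10.6% and 10.6% of the null cells outside the gut-like class (95% Clopper-Pearson intervals 2.10% to 2.97% and 2.63% to 3.62%, and 9.71% to 11.5% and 9.73% to 11.6%). These intervals cover counting error only. Erythroid-like cells, which make haemoglobin, had shares of 2.94% and 2.00% in WT and of 11.7% and 13.4% in null. Their median depths were 36345.5 to 47071 UMIs, against 33208 to 38097 UMIs outside the gut-like class. The Spink1 shares outside the gut-like class thus lay near those of erythroid-like cells. The latter rest on 2 and 1 UMIs in 68 and 50 WT cells and on 9 and 9 UMIs in 60 and 67 null cells. The shares alone cannot tell expression in these cells from RNA of other cells, and their source was not tested. For Ttr the shares were 1.29% and 1.37% in WT and 7.75% and 8.37% in null, against 0 of 68 and 2.00% of the WT and 5.00% and 5.97% of the null erythroid-like cells (intervals up to 13.9% and 14.6%). A count of 0 in 68 cells has an upper limit of 5.28%.

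Rbp4 and Apoe were found in more cells than that. Rbp4 had a UMI in 15.2% and 15.8% of the WT and in 23.4% and 24.1% of the null cells outside the gut-like class, against 4.41% and 2.00% of the WT and 8.33% and 8.96% of the null erythroid-like cells. Apoe had a UMI in 41.02% and 41.9% against 54.6% and 54.4%, and in erythroid-like cells in 17.6% and 4.00% of the WT and 28.3% and 22.4% of the null cells. When each cell was thinned to 7500 UMIs, Spink1 was in 0.367% and 0.472% of the WT and in 1.87% and 1.82% of the null cells, and Ttr in 0.290% and 0.369% against 1.40% and 1.98%. Thinned shares of Rbp4 were 3.38% and 3.10% against 4.48% and 5.30%. The order of the genotypes was thus the same at equal depth. A UMI of any of the 9 genes was found in 51.6% and 53.0% of the WT and 72.6% and 73.8% of the null cells, with a median of 1 UMI a cell in each library.

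Ratios between the genes were compared as a description, not as a test of free RNA. Per UMI of Spink1, there were 0.689 and 0.719 UMIs of Ttr outside the gut-like class in WT and 0.855 and 0.807 in null. The same ratio was 0.707 and 0.785 in WT and 0.841 and 0.900 in null gut-like cells, 1.91 to 2.57 in Amn/Cubn-high barcodes and 0.457 to 0.538 in the gut-like cells without them. The CPM added outside in null had a ratio of 0.877, within the range of the null gut-like cells. That value includes the 4 Amn/Cubn-high cells outside the gut-like class. Without them mean Ttr was at 0.467 CPM in WT and 2.34 CPM in null, and mean Spink1 at 0.784 and 3.06 CPM. The added ratio is then lower and falls below that range. Apoa1 per Spink1 was 1.09 and 0.862 in WT and 0.700 and 0.731 in null outside the gut-like class. It was 0.247 to 0.389 in gut-like cells, 1.14 to 1.68 in Amn/Cubn-high barcodes and 0.0146 to 0.175 in the other gut-like cells, with 0.627 in the added CPM, above the gut-like range. For both pairs the added ratio was above that of gut-like cells without Amn/Cubn-high barcodes and below that of the Amn/Cubn-high barcodes, and so it was for Afp (0.364), Apoa4 (0.0394), Apob (0.195), Apom (0.213) and Rbp4 (1.19) per Spink1. Apoe per Spink1 lay above both, with 2.99 in the added CPM against 1.39 to 1.73 in Amn/Cubn-high barcodes and 0.315 to 0.557 in the other gut-like cells.

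Across the 11 classes the null ratio of Ttr to Spink1 ran from 0.607 in endothelium-like cells (68 against 112 UMIs) to 1.26 in cluster 10 (24 against 19 UMIs), a span of 2.08-fold. Apoa1 to Spink1 ran from 0.321 in endothelium-like to 1.00 in erythroid-like cells. Rbp4 to Spink1 spanned 4.44-fold, from 0.946 in endothelium-like to 4.203 in NMP-like cells, and Apoe to Spink1 spanned 29.1-fold, from 1.95 in cluster 10 to 56.7 in endothelium-like cells. The ratio of Ttr to Spink1 was the most even of the 4 and that of Apoe the least even. The part of free RNA in these differences was not tested.

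Within the gut-like class the 9 genes were also higher in null. Ttr was at 170 and 248 CPM in WT and at 501 and 492 CPM in null. Spink1 was at 240 and 316 CPM against 596 and 547 CPM, Rbp4 at 210 and 243 CPM against 468 and 487 CPM, and Apob at 19.7 and 20.8 CPM against 66.0 and 51.3 CPM. Both null libraries were above both WT libraries for 8 of the genes, Apoa4 being the exception with 3.03 and 6.25 CPM in WT and 6.08 and 6.39 CPM in null. That order was seen for 35.3% of the 13121 genes tested in the class. The summed genes were at 1048 and 1245 CPM in WT and at 2345 and 2315 CPM in null, 2.03-fold higher.

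Part of that level came from a handful of cells. Without the 34 Amn/Cubn-high cells in the class, the summed genes were at 701 and 594 CPM in WT and at 1147 and 1248 CPM in null. Ttr was then at 101 and 106 CPM against 206 and 239 CPM and Spink1 at 201 and 232 CPM against 447 and 444 CPM, so both remained higher in null. Apoa1 was at 35.1 and 3.38 CPM against 15.9 and 23.8 CPM, and Afp at 71.5 and 20.04 CPM against 64.9 and 60.5 CPM, with the genotypes overlapping for both.

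Clustering the gut-like cells again gave 7 groups of unlike content. A group of 30 cells led by Cubn, S100g, Npl, Amn and Spp2, 29 of them Amn/Cubn-high, held 44.6% of the class's UMIs of the 9 genes, with Ttr at 7980 CPM, Apoa1 at 4629 CPM and Afp at 1834 CPM over the libraries together. It had 3 and 4 cells in WT and 11 and 12 in null. A group of 286 cells led by Dkk1, Chst15, Cdh6, Fam46a and Emb held 29.0%, with Spink1 at 779 CPM and Ttr at 468 CPM. A group of 368 cells led by Sema3c, Kcnk2, Fam183b, Prss23 and Kcnq3 held 18.5%, with Rbp4 at 359 CPM and Afp at 138 CPM. The groups differed in which of the 9 genes they held, and a pair of them held few. Ttr was at 7.80 CPM in the 362 cells led by Cyp26a1, Epha5, Hoxc10, Fgf17 and Hoxd11, and at 7.49 CPM in the 119 cells led by Trap1a, Nav3, Rhox5, Rhox6 and Pcp4, although the latter led with the descent markers. Spink1 reached 1169 CPM in 45 cells led by Igf1, Lbh, Smoc2, Sox21 and Vstm2b, in which Apoa1 was at 2.14 CPM. The remaining 97 cells led by Pyy, 2610528A11Rik, Fabp1, Ppp1r3g and Nrn1 had a median of 14755 UMIs and held 1.28%.

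Genes that varied with the sum of the 9 over the 521 WT gut-like cells were led by Emb (Pearson r = 0.70), Folr1 (0.70), Car4 (0.69), Lgals2 (0.69), S100g (0.68), Dab2 (0.67), Clic6 (0.67), Psph (0.65), Ctsh (0.65) and Tdh (0.65), out of 11001 genes. Dab2 is the adaptor of the cubilin uptake route. Over the 786 null gut-like cells their r ran from 0.62 (Psph) to 0.72 (S100g). Without the Amn/Cubn-high cells r in WT was 0.71 for Emb, 0.58 for S100g and 0.46 for Ctsh. Rhox5 (0.39) and Trap1a (0.35) ranked 132 and 174, and Cdx2, the posterior gut factor, was among the last (r = -0.43, rank 10966). These cells share libraries and depth, and the values are descriptions.

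The level outside the class, as a percentage of the level inside it, was compared between the 9 genes and other genes restricted to a class, meaning a level of at least 200 CPM there and at least 20 times that of all other cells. Among the 9, Ttr, Spink1 and Rbp4 met this for the gut-like class. Ttr outside was at 0.289% and 0.274% of its gut-like level in WT and at 0.544% and 0.501% in null, and Spink1 at 0.297% and 0.299% against 0.535% and 0.559%. Both were therefore higher in null relative to the gut-like cells of the same library. Rbp4 went the other way, with 2.25% and 2.04% against 1.52% and 1.65%. Apoe, which did not meet the limits, was at 18.99% and 17.8% against 13.8% and 13.5%.

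Of the 5 restricted gut-like genes outside the 9, Apela (4.36% and 3.82% in WT, 5.14% and 5.49% in null) and Cpm (3.47% and 3.28% against 3.86% and 3.78%) were also higher in both null libraries, by smaller ratios than Ttr and Spink1. Cldn7 was lower in null (4.55% and 4.75% against 3.22% and 3.10%). Nepn was at 0.320% and 0.257% in WT and at 0.284% and 0.307% in null, and Krt19 at 5.00% and 4.99% against 4.67% and 5.32%. The genotypes overlapped for Nepn and Krt19. The median over these 5 genes was 4.36% and 3.82% against 3.86% and 3.78%. The genes of erythroid-like cells, 25 in all, had medians of 0.486% and 0.423% in WT and 0.518% and 0.464% in null. The 11 genes of endothelium-like cells had medians of 1.77% and 1.62% against 2.05% and 2.17%. Both null libraries thus lay above both WT libraries for Ttr and Spink1, and also for Apela, Cpm and the median of the endothelium-like genes. They did not for Rbp4, Nepn, Krt19, Cldn7 or the median of the erythroid-like genes. Set against Amn/Cubn-high barcodes instead, Spink1 outside was at 0.0212% and 0.0285% of the level there in WT and at 0.0756% and 0.0890% in null.

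**Figure D5:**
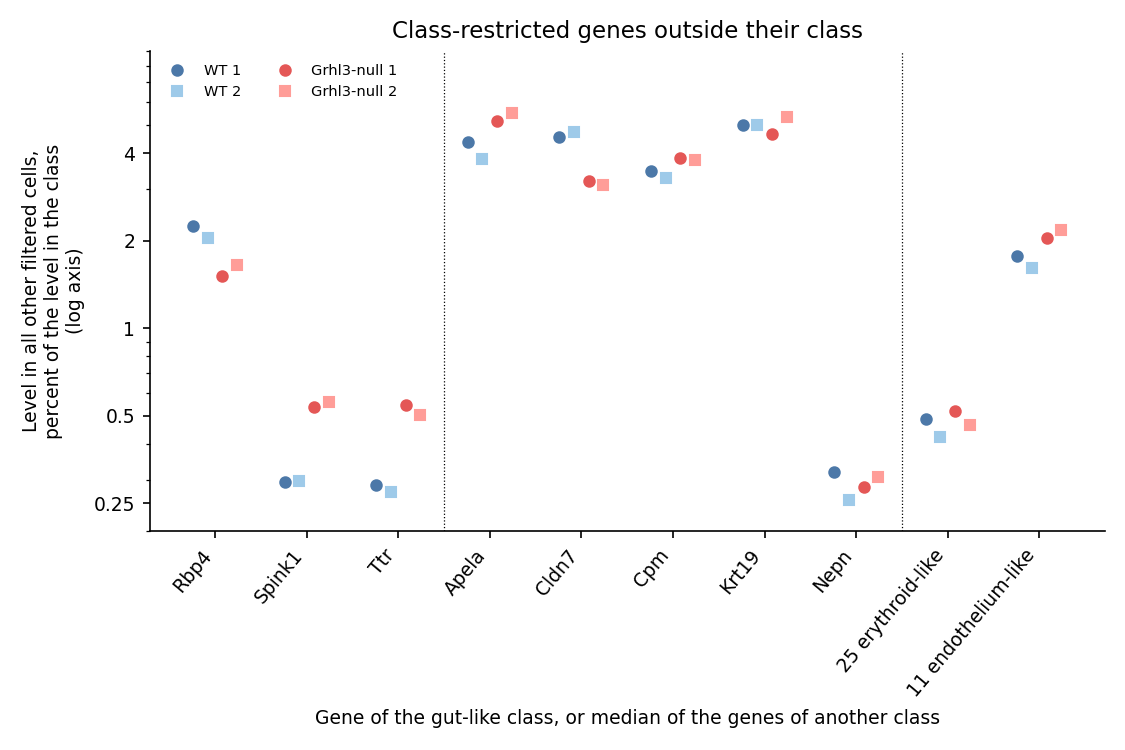
Level in all other filtered cells as a percentage of the level in the class (log axis) for the restricted genes of the gut-like class and the medians of 25 erythroid-like and 11 endothelium-like genes, with 1 point per library. Ttr and Spink1 sit near 0.3% in WT and between 0.501% and 0.559% in null. Apela, Cpm and the endothelium-like median are also higher in both null libraries. Rbp4 and Cldn7 are lower in null, and Nepn, Krt19 and the erythroid-like median overlap between the genotypes.

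Related genes that are not among the 9 were tested with edgeR over all genes, and a gene was called at an adjusted p under 0.05 with a log2 fold change of at least 1. Of all genes tested outside the gut-like class 0.983% were called higher and 2.06% in either direction. These sums pool classes whose shares of the kept cells differed between the genotypes. Pre-somitic mesoderm-like cells were 9.31% and 9.52% in WT and 0.0620% and 0.0837% in null. Mesenchyme 1-like cells were 10.0% and 9.15% in WT and 17.0% and 15.7% in null. The part of this mix of classes in the values outside the gut-like class was not tested. Outside the gut-like class, 8 of 14 other secreted proteins of visceral endoderm and liver could be tested, with a median log2 fold change of -0.26 against 0.00 over all genes. Fgb, a fibrinogen chain, rose by a log2 fold change of 1.43 (SE 0.21, adjusted p = 1.8e-03), from 0.137 and 0.197 CPM in WT to 0.413 and 0.499 CPM in null. Vtn, the adhesion protein vitronectin, fell by 1.03 (SE 0.12, adjusted p = 6.8e-04), from 1.63 and 1.74 CPM to 0.730 and 0.952 CPM. Vtn is also among the study's notochord markers. Notochord-like cells were 1.17% and 1.47% of the kept cells in WT and 0.909% and 1.11% in null, and their part in the Vtn value was not tested. Apoa2, made beside Apoa1 in Amn/Cubn-high barcodes, was at 4.81 and 5.50 CPM in WT and at 4.58 and 4.24 CPM in null outside the gut-like class, a log2 fold change of -0.24 that was under the fold limit. Fgb and Vtn thus moved in opposite directions, and the Vtn call was lost without WT 2 (-0.98) or Grhl3-null 1 (-0.84).

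Of the 8 uptake and lipoprotein assembly genes, Cubn rose outside the gut-like class by 1.37 (SE 0.24, adjusted p = 3.6e-03), from 0.132 and 0.212 CPM to 0.399 and 0.504 CPM, and 0 fell. Amn, its partner, was at 0.509 and 0.592 CPM against 0.701 and 0.650 CPM (log2 0.28, adjusted p = 0.14). The median of these genes was 0.29. Of 9 endoderm transcription factors tested, of 2 descent markers and of 7 haemoglobin genes, 0 were called, with medians of 0.46, 0.13 and 0.00. Without the fold limit, at an adjusted p under 0.05 in edgeR, 16.8% of all genes tested were higher in null and 17.5% were lower. At that limit 6 factors were higher and 1 lower, as were 2 and 3 of the other secreted proteins, 3 and 1 of the uptake genes, 6 and 2 of the gut markers, 1 and 1 of the haemoglobin genes and 0 and 0 of the descent markers. Of 12 gut markers, Nepn rose by 1.04 (SE 0.14, adjusted p = 1.2e-03), from 1.06 and 0.784 CPM to 1.77 and 2.08 CPM, a call lost without WT 2 (0.84) or Grhl3-null 2 (0.93).

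In the gut-like class 1.19% of all genes tested were called higher and 1.65% in either direction. Fga (log2 1.57, SE 0.35, adjusted p = 3.4e-03) and Fgb (1.11, SE 0.14) rose among 10 secreted protein genes tested, Cubn (1.17, SE 0.19) and the uptake adaptor Dab2 (1.25, SE 0.10) among 8 uptake genes, and Hnf4a (1.47, SE 0.21) and Gata4 (1.26) among 10 transcription factors, with 0 called lower in these lists. Without the fold limit, 9.47% of all genes tested there were higher and 9.86% lower, against 5 and 0 of the secreted protein genes, 5 and 0 of the uptake genes and 5 and 3 of the factors. Dab2 was at 25.7 and 37.2 CPM in WT and at 79.2 and 72.5 CPM in null. The medians of these lists were 0.79, 0.63 and 0.34. Without WT 1 the calls of Fga (adjusted p = 0.064), Cubn (log2 0.78), Dab2 (0.99) and Gata4 (0.75) were lost. That of Fgb was lost without WT 2 (0.87) and that of Cubn also without Grhl3-null 1 (0.91). Rhox5 and Trap1a, at log2 0.37 and 0.55, were under the fold limit, and 0 of the 12 gut markers and 0 of 5 haemoglobin genes tested were called. The number of Amn/Cubn-high cells in the class, 4 and 5 in WT and 12 and 13 in null, moved with these genes, and its part in them was not tested beyond removing the cells with an Amn or Cubn UMI.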

How the data were processed

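Caudal cells of E8.5 embryos gave 4 libraries, made with a 10x Genomics 3′ kit. The authors ran Cell Ranger against mm10, and what they deposited are raw UMI counts per gene and barcode, before their filters. These deposited counts were used as they stand, and samples were grouped by their labels. The 9 genes, the lists and the rule for named genes (the 9 genes, Grhl3, genes of fixed lists, leading genes of sub-clusters, class-restricted genes and the 10 best correlated genes) were chosen with earlier results of these data known.

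Cells were clustered in Seurat 5.3.0 with sctransform 0.4.2 (R 4.3.3), with 3000 variable features, 30 components, 20 neighbours and a resolution of 0.4. Clusters were named from the study's markers (at least 3 among 30 leading genes and over 1.5 times the next type), so names are rebuilt and can differ from the study's. Scrublet in scanpy 1.11.5 marked at most 0.063% of a library automatically, so the 5% highest scores (239 to 273 cells) were taken as doublets, kept here and left out in an alternative. Sums of UMIs per library and class were given as CPM and tested with edgeR 4.0.16 (TMM, filterByExpr, quasi-likelihood, Benjamini-Hochberg), calling an adjusted p under 0.05 with a log2 fold change of at least 1. DESeq2 1.42.0 was an alternative. A gene of the fixed lists is not reported here. The fits were tested on simulated data. The 2 libraries of a genotype were not the same library deposited again, since their counts outside the gut-like class gave a chi-square of 7.56 in WT and 13.0 in null for each degree of freedom. Intervals and shares used SciPy 1.17.1 in Python 3.11.15, and figures matplotlib 3.10.9. Gene positions came from GENCODE for mm10, promoter windows from RefSeq.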

Additional observations from a re-analysis of the deposited data

Results flagged for a closer look

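Barcodes that failed the filters, which entered no tested comparison of the genotypes, held 2363 and 2742 CPM of the 9 genes in WT and 9427 and 10650 CPM in Grhl3-null.

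Apoe differed between the genotypes in opposite directions in different classes, with no overlap of the libraries. The log2 fold of Grhl3-null over WT was 0.30 in somitic mesoderm-like, 0.41 in mesenchyme 1-like, 0.57 in neuroepithelium-like, 0.27 in paraxial mesoderm-like, 0.76 in mesenchyme 2-like and 0.80 in intermediate mesoderm-like cells. It was -0.44 in NMP-like cells, -0.16 in surface ectoderm-like cells and -0.94 in cluster 10. For several related genes both Grhl3-null libraries lay above both WT libraries in one of the gut-like class and the cells outside it, and below them in the other. None of these genes reached the fold limit, and Cldn6 outside (adjusted p = 0.15) and Trf inside (adjusted p = 0.080) did not pass edgeR's test at any fold. Lower outside and higher inside were Trf (log2 -0.28 and 0.22), Apoa2 (-0.24 and 0.66), Lgmn (-0.14 and 0.34), Cldn7 (-0.38 and 0.16) and Cldn6 (-0.047 and 0.16). Higher outside and lower inside were Sox17 (0.52 and -0.30), Hhex (0.67 and -0.57) and Apela (0.21 and -0.19). The differences between classes were not tested, and neither was the part of the mix of classes in the values outside the gut-like class.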

How the results depend on the processing

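Outside the gut-like class 348 genes were called (166 higher and 182 lower), 192 with DESeq2, and 275 to 357 when 1 library was left out. In the gut-like class 217 were called, 102 without the filter on low counts, 82 with DESeq2, and 170 to 220 when 1 library was left out. With 1 library left out, the lone library of its genotype was assumed to vary like the others. The summed genes outside the gut-like class were higher in null by 0.49 on the log2 scale, by 0.34 with every class weighted equally, and by 0.42 to 0.56 when 1 library was left out. The log2 fold of the ratio of outside to inside was -0.54, -0.78 without cells holding an Amn or Cubn UMI (an alternative chosen after seeing the data), and -0.59 to -0.48 when 1 library was left out. Samples with the same replicate number shared only a number (correlation of deviations 0.020 outside and 0.035 in the gut-like class), and the replicate block gave 361 and 212 calls.

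Of the 9 genes outside the gut-like class, each kept its direction under each alternative, with log2 folds of 1.83 to 2.31 for Afp, 1.89 to 2.41 for Ttr, 1.34 to 1.60 for Apoa1, 1.39 to 2.15 for Apoa4, 1.71 to 2.20 for Apob, 0.16 to 0.33 for Apoe, 0.73 to 1.20 for Apom, 0.55 to 0.80 for Rbp4 and 1.73 to 2.13 for Spink1. Calls also lost were Vtn outside (-0.98) and Gata4 in the gut-like class (adjusted p = 0.060) without cells holding an Amn or Cubn UMI, Gata4 (adjusted p = 0.074) and Cubn (0.81) in the gut-like class at a mitochondrial limit of 5%, and Cubn there with DESeq2 (adjusted p = 0.12). The causes were not tested.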

Other observations

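Within the gut-like class the 9 genes differed between the genotypes in some groups of cells and overlapped in others. In the 97 shallow cells led by Pyy (22 and 18 in WT, 27 and 30 in Grhl3-null), Ttr was at 44.4 and 42.9 CPM in WT and at 368 and 269 CPM in null, Rbp4 at 41.2 and 19.8 CPM against 382 and 289 CPM, and Spink1 at 143 and 162 CPM against 490 and 519 CPM. In the 368 cells led by Sema3c, Spink1 was at 140 and 173 CPM in WT and at 397 and 533 CPM in null. In the 286 cells led by Dkk1, Ttr was at 292 and 487 CPM against 432 and 586 CPM, and Rbp4 at 202 and 337 CPM against 234 and 343 CPM, so that the genotypes overlapped for both. They overlapped for Ttr also in the 30 cells led by Cubn (6871 and 9120 CPM in WT, 7848 and 8041 CPM in null). The groups were chosen by clustering these same cells, and none of these differences was tested.

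The cells outside the gut-like class were also split by depth into 4 bins of like cell number in each library. From the shallowest to the deepest bin the median depth rose 3.23-fold and 3.15-fold in WT and 2.92-fold and 2.88-fold in null. The UMIs of a gene per cell, set beside it, are means. UMIs of Spink1 per cell were 2.92-fold and 4.00-fold higher in the deepest bin in WT and 3.10-fold and 3.59-fold in null, close to the ratio of depths. For Ttr the ratios were 1.07 and 1.33 in WT and 1.39 and 3.09 in null, below the ratio of depths in 3 of the 4 libraries, and for Apoa1 they were 1.42 and 1.83 in WT and 1.76 and 2.91 in null.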
